A study of Homo sapiens with 4 samples.

Results

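The genes of the Hippo pathway, the YAP and TEAD proteins it controls and a list of known YAP/TEAD target genes were examined in RNA-seq data of cultures that the labels call HepG2, a human liver cancer line. The list held 38 genes, and all 38 were found by symbol among 57768 genes: the coactivators YAP1 and WWTR1, 4 TEAD factors, 8 genes of the kinase core, 7 regulators and 17 targets. The list was chosen by the genotype difference in FPKM of YAP1 in these libraries, since its fall led to the question of what its pathway and targets did. YAP1 is therefore described without a test, and no count of changed genes below is read as evidence about the list. The WT group was 2 libraries of cells labelled WT. The C/EBPβ enh-/- group was 2 libraries of cells in which CRISPR/Cas9 had removed both copies of an enhancer that lies downstream of CEBPB, the gene of the transcription factor C/EBPβ. Both groups were grown in the same DMEM medium with fetal bovine serum and the labels name no treatment besides the CRISPR/Cas9 vectors. Nothing in the labels says whether the libraries of a genotype came from separate cultures or clones, so the p-values measure the spread between these libraries, which may be technical. The values are FPKM, fragment numbers divided by transcript length and library size. Differences are given as C/EBPβ enh-/- minus WT on the log2(FPKM + 1) scale, which understates the change of genes with low values.

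The Hippo pathway limits growth through a kinase cascade. MST kinases, encoded by STK3 and STK4, act with the adaptor SAV1 to activate LATS1 and LATS2, which act with MOB1 proteins to phosphorylate YAP and its relative TAZ and so keep them out of the nucleus. Unphosphorylated YAP and TAZ bind TEAD factors on DNA and switch on genes of growth, adhesion and matrix, among them CCN1 and CCN2. In the liver the pathway restrains organ size, and active YAP is common in liver cancer. Phosphorylation and location of the proteins are not seen in mRNA values.

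Depth, estimated from the spacing of low FPKM values, was about 38800000 and 43500000 fragments for WT, against 22000000 and 48000000 for C/EBPβ enh-/- libraries 1 and 2. The 5 most abundant genes took up 18.8% to 22.3% of the FPKM total in the WT libraries, 35.1% in C/EBPβ enh-/- library 1 and 27.4% in library 2. Of 20 hepatocyte markers, 19 lay below an FPKM of 1 in all 4 libraries, with APOC3 and FOXA2 at 0 in all and ALB at 0.055 or less, so the labelled liver cell type was not seen in its markers. VTN was the exception, at 0.8 to 1.444. The summed FPKM of the 20 was 1.49 to 1.73 in WT and 1.95 to 2.46 in C/EBPβ enh-/- cells. Of 10 mesenchymal markers, 7 were at an FPKM of 1 or more in every library. The summed FPKM of the 10 was 313.72 and 385.67 in WT and 268.25 and 223.72 in C/EBPβ enh-/- cells, most of it VIM. COL3A1 went the other way, with 33.253 and 31.936 in WT and 45.812 and 55.666 in C/EBPβ enh-/- cells, and COL1A1 overlapped. All 5 blood and immune and all 3 matched endothelial markers were below 1. The summed FPKM of 8 epithelial markers was 661.66 and 816.81 in WT and 238.5 and 238.58 in C/EBPβ enh-/- cells, almost all of it KRT8 and KRT18, while EPCAM and CDH1 were at 0.008 or less. The part of these marker differences in the results below was not tested. CEBPB had an FPKM of 30.6 and 19.2 in WT and 12.4 and 11.8 in C/EBPβ enh-/- cells. Its difference was −0.94 (standard error 0.27, limma adjusted p = 0.125), and both C/EBPβ enh-/- values were the lower ones. It was −0.62 without WT library 1 and −1.27 without WT library 2.

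TEAD factors bind the motif GGAATG, so the promoters of the listed genes were searched for it on both strands. Promoters, from 250 bases before to 50 bases after each annotated start, came from RefSeq on GRCh38.p14, and 30 of the 38 genes were matched to at least 1. The motif was found in 10 of these 30 genes (33.3%), against 16.7% of all 27305 genes with a promoter and 14.0% of all 35116 promoters. The 10 were YAP1, the kinase gene LATS2, the regulators AMOTL2 and WWC2, and the targets CCN2, ANKRD1, AJUBA, AXL, NUAK2 and PTPN14. Targets are on the list for known regulation by TEAD factors, so this share is a description. The 250 bases before the start are shown for 4 of them, 5′ to 3′ on the strand of the gene, with the motif or its reverse complement CATTCC in capitals: CCN2 and ANKRD1 because they are classic TEAD targets, YAP1 because it led to the list, and AXL because it is the target that passed the test. CCN2 holds 3 motifs that begin at positions −169, −104 and −95 from the start, ANKRD1 holds 2, and YAP1 and AXL hold 1 each.
CCN2, chr6:131951373-131951622, minus strand: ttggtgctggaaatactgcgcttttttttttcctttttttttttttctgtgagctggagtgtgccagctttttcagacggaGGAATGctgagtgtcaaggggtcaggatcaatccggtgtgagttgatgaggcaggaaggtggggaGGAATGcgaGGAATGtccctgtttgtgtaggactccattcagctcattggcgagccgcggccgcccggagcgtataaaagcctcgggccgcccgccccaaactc
ANKRD1, chr10:90921088-90921337, minus strand: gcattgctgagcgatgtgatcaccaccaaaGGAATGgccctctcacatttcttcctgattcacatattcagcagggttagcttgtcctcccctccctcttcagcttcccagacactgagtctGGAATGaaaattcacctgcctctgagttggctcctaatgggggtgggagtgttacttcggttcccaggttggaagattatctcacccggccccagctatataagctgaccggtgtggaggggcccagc
YAP1, chr11:102110197-102110446, plus strand: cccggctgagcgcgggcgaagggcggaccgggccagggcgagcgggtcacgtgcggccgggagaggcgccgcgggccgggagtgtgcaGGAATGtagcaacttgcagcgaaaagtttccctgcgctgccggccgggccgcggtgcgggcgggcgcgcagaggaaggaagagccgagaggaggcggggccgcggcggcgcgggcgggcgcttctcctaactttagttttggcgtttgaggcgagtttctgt
AXL, chr19:41226505-41226754, plus strand: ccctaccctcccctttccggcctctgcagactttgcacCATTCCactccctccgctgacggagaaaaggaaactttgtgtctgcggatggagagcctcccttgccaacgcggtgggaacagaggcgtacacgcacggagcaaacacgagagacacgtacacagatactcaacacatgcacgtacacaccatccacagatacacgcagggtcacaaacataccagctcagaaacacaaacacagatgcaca

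The motif in AXL lies before a later annotated start of the gene. In LATS2, the match begins 10 bases after the start. The C/EBP motif TTGCNNAA, searched in the same way, was found in 3 of the 30 genes (10.0%), VGLL4, AXL and GADD45B, against 12.7% of all genes. The AP-1 motif TGANTCA was found in 4 (13.3%), LATS1, MOB1B, ANKRD1 and F3, against 9.37% of all genes. A match is a run of letters and was not tested for binding.

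YAP1 (ENSG00000137693.9), which spans bases 101981178 to 102104155 of the plus strand of chromosome 11 (GRCh37), had the highest FPKM of the 38 genes in every library. Its FPKM was 298.9 and 243.9 in WT and 107.6 and 108.5 in C/EBPβ enh-/- cells, given here and below in the order of libraries 1 and 2. Means of 271.4 ± 38.9 (SD, n = 2) for WT and 108.0 ± 0.605 (SD, n = 2) for C/EBPβ enh-/- cells gave a ratio of 0.398 and a difference of −1.31 (standard error 0.21). The C/EBPβ enh-/- libraries were nearly equal and far below both WT libraries. YAP1 ranked between 210 and 560 among the 12491 tested genes, so it stayed an abundant mRNA after the deletion. In bulk samples, fewer cells that express a gene and less RNA per cell cannot be told apart.

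WWTR1 encodes TAZ, the other coactivator. Its FPKM was 9.03 and 6.22 in WT and 5.71 and 6.25 in C/EBPβ enh-/- cells, so the genotypes overlapped. The difference was −0.29 (95% confidence interval −0.88 to 0.30, limma adjusted p = 0.552). In WT cells the FPKM of YAP1 was 33.1 and 39.2 times that of WWTR1, and in C/EBPβ enh-/- cells 18.8 and 17.4 times. YAP1 therefore supplied almost all of the coactivator mRNA in both genotypes, and the sum of both genes was 307.9 and 250.1 in WT and 113.3 and 114.7 in C/EBPβ enh-/- cells.

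**Figure D1:**
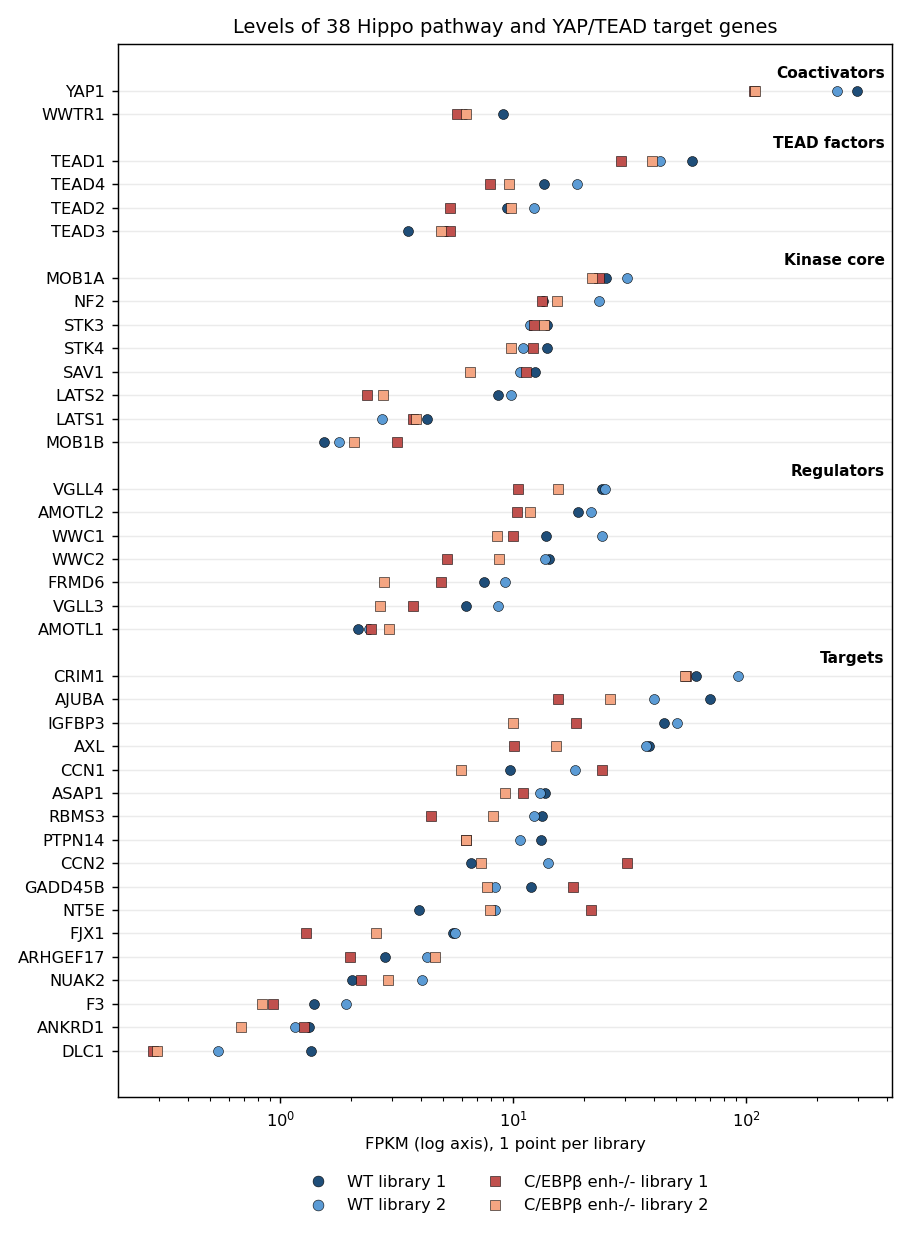
FPKM of the 38 genes on a log axis, 1 point per library, with circles for WT and squares for C/EBPβ enh-/- libraries and genes ordered by mean level within each role. YAP1 lies farthest to the right in all 4 libraries, at 243.9 or more in WT and 107.6 to 108.5 in C/EBPβ enh-/- cells, while the circles and squares of CCN1, CCN2 and NT5E are mixed.

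Apart from YAP1, 36 of the listed genes were tested (mean FPKM of 1 or more), and 2 of them, LATS2 and AXL, had a limma adjusted p under 0.05, both lower in C/EBPβ enh-/- cells. Over all 12491 tested genes, 1.21% were called lower and 0.248% higher. At an unadjusted p under 0.05, 14 of the 36 were lower, against 16.9% of all genes, and 0 were higher, against 3.86%. Both C/EBPβ enh-/- libraries lay below both WT libraries in 19 of the 36, against 37.5% of all genes, and above both in 2, against 15.1%, while the genotypes overlapped in 15. The median difference was −0.41, against −0.14 over all tested genes. These genes were listed with the fall of YAP1 in the same libraries known, so the shares describe the list and are not a test of it. Without any 1 of the 4 libraries, 0 of the 36 genes were called, and the same held with the replicate number as a block, with rescaled or centred libraries and with no filter on low values. Over all 12491 tested genes, 151 were called lower and 31 higher with all 4 libraries, and every fit that left out 1 library called fewer of each. With no filter, 57768 genes were tested and the calls were 0 and 0. The loss of calls was therefore not particular to the listed genes.

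The 4 TEAD genes encode the DNA-binding partners of YAP and TAZ. TEAD1 was the highest, with an FPKM of 58.4 and 42.6 in WT and 29.0 and 39.2 in C/EBPβ enh-/- cells. Both C/EBPβ enh-/- values were below both WT values, but the gap between the nearest libraries was smaller than that between libraries of either genotype, and the difference was −0.55 (limma adjusted p = 0.287). It was −0.33 without WT library 1 and −0.34 without C/EBPβ enh-/- library 1. TEAD4 had an FPKM of 13.5 and 18.8 in WT and 7.96 and 9.61 in C/EBPβ enh-/- cells. Its difference of −0.80 (standard error 0.25) did not pass the threshold (limma adjusted p = 0.148), though the genotypes did not overlap. TEAD2 had 9.36 and 12.3 in WT and 5.36 and 9.8 in C/EBPβ enh-/- cells, with overlap. TEAD3, the lowest of the 4, had 3.54 and 5.16 in WT and 5.34 and 4.89 in C/EBPβ enh-/- cells, and its difference of 0.21 turned to −0.01 without WT library 1. The summed FPKM of the 4 genes was 84.7 and 78.9 in WT and 47.7 and 63.5 in C/EBPβ enh-/- cells. TEAD1 made up 53.9% to 68.9% of that sum, and both C/EBPβ enh-/- shares, 60.8% and 61.7%, lay inside the range of the WT libraries. The FPKM of YAP1 was 3.53 and 3.09 times the TEAD sum in WT and 2.26 and 1.71 times in C/EBPβ enh-/- cells, so YAP1 was the more abundant partner throughout.

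In the kinase core, LATS2 (ENSG00000150457.7, chromosome 13 of GRCh37 from 21547175 to 21635725, minus strand) was the gene that changed. It encodes 1 of the kinases that phosphorylate YAP and is itself known as a target of YAP, which makes it a feedback gene. Its FPKM was 8.61 and 9.75 in WT and 2.35 and 2.76 in C/EBPβ enh-/- cells. The mean fell from 9.18 ± 0.808 (SD, n = 2) to 2.56 ± 0.29 (SD, n = 2), a ratio of 0.278, and the groups lay far apart. The difference was −1.52 (standard error 0.23, limma adjusted p = 0.0325). The adjusted p was 0.269 and 0.262 without WT library 1 or 2, 0.187 and 0.0998 without C/EBPβ enh-/- library 1 or 2, and 0.0506 with the replicate number as a block. It was also 0.0621 with libraries rescaled to 1 total, 0.0614 with libraries centred on their medians, 0.288 with no filter on low values and 0.0538 with the filter raised to a mean FPKM of 5.

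LATS1, the other kinase of the pair, had an FPKM of 4.24 and 2.72 in WT and 3.69 and 3.83 in C/EBPβ enh-/- cells. Both C/EBPβ enh-/- values lay between the WT values, and the difference was 0.11 (95% confidence interval −0.52 to 0.73). The ratio of LATS1 to LATS2 was 0.493 and 0.278 in WT and 1.57 and 1.39 in C/EBPβ enh-/- cells, so LATS2 was the higher of the pair in both WT libraries and the lower in both C/EBPβ enh-/- libraries. Their summed FPKM was 12.9 and 12.5 in WT and 6.04 and 6.59 in C/EBPβ enh-/- cells.

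None of the other 6 core genes passed the test. STK3 and STK4, the upstream kinases, were at almost equal levels in 3 libraries, with a ratio of STK3 to STK4 of 0.998, 1.07 and 1.01, and of 1.38 in C/EBPβ enh-/- library 2. The FPKM of STK3 was 13.9 and 11.8 in WT and 12.2 and 13.5 in C/EBPβ enh-/- cells, a difference of 0.00 (95% confidence interval −0.51 to 0.52) whose sign depended on the scaling of the libraries. STK4 had 13.9 and 11.0 in WT and 12.1 and 9.77 in C/EBPβ enh-/- cells, a difference of −0.17 that became 0.00437 when libraries were centred on their medians. The adaptor SAV1 had 12.4 and 10.7 in WT and 11.3 and 6.54 in C/EBPβ enh-/- cells, where library 2 alone was low. NF2, which encodes the membrane scaffold Merlin, had 13.4 and 23.4 in WT and 13.3 and 15.4 in C/EBPβ enh-/- cells, where WT library 2 alone was high. MOB1A and MOB1B encode coactivators of the LATS kinases that are close relatives of each other. MOB1A had 24.9 and 30.6 in WT and 23.3 and 21.8 in C/EBPβ enh-/- cells (difference −0.28). MOB1B had 1.54 and 1.79 in WT and 3.17 and 2.07 in C/EBPβ enh-/- cells (difference 0.43), 1 of the 2 listed genes with both C/EBPβ enh-/- values above both WT values. The ratio of MOB1A to MOB1B was 16.1 and 17.1 in WT and 7.33 and 10.5 in C/EBPβ enh-/- cells. The median difference of the 8 core genes was −0.23, close to the −0.14 of all tested genes.

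**Figure D2:**
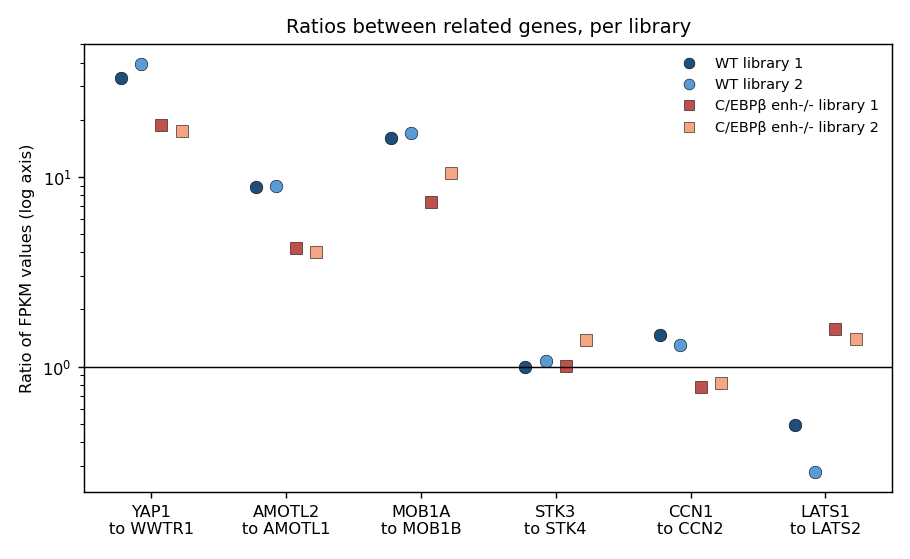
Ratio of the FPKM of 2 related genes in each library on a log axis, with circles for WT and squares for C/EBPβ enh-/- libraries and a line at equal levels. The ratio of LATS1 to LATS2 crosses the line, from 0.493 or less in WT to 1.39 or more in C/EBPβ enh-/- cells, that of CCN1 to CCN2 crosses it the other way, and that of STK3 to STK4 overlaps between genotypes.

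The regulators, upstream scaffolds and cofactors that tune YAP and TEAD, had differences from −1.01 to 0.17. In 6 of the 7, both C/EBPβ enh-/- libraries lay below both WT libraries, against 37.5% of all genes, and the same 6 had an unadjusted limma p under 0.05, against 16.9%, but 0 passed after adjustment. Their median difference was −0.91. AMOTL2, a junction protein that binds YAP and a known YAP target, had an FPKM of 19.0 and 21.5 in WT and 10.4 and 11.8 in C/EBPβ enh-/- cells (difference −0.81, limma adjusted p = 0.111). The libraries of each genotype were close together. Its relative AMOTL1 had 2.15 and 2.4 in WT and 2.46 and 2.93 in C/EBPβ enh-/- cells (difference 0.17), the other listed gene with both C/EBPβ enh-/- values the higher. The ratio of AMOTL2 to AMOTL1 was 8.81 and 8.94 in WT and 4.23 and 4.02 in C/EBPβ enh-/- cells.

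VGLL3 and VGLL4 encode vestigial-like proteins, which bind TEAD factors in place of YAP. VGLL4, known as a repressor of TEAD activity, had an FPKM of 24.0 and 24.8 in WT and 10.5 and 15.6 in C/EBPβ enh-/- cells (difference −0.88, limma adjusted p = 0.125). VGLL3 had 6.27 and 8.63 in WT and 3.71 and 2.67 in C/EBPβ enh-/- cells (difference −1.01, limma adjusted p = 0.106). The remaining 3, FRMD6, WWC1 and WWC2, encode scaffolds that help to activate the kinases. WWC1, also called KIBRA, had 13.8 and 24.0 in WT and 9.97 and 8.53 in C/EBPβ enh-/- cells with a wide gap between the WT libraries, and its difference of −0.91 was −0.53 without WT library 2. WWC2 had 14.2 and 13.7 in WT and 5.18 and 8.66 in C/EBPβ enh-/- cells, and its difference of −0.95 was −0.63 without C/EBPβ enh-/- library 1. FRMD6 had 7.5 and 9.23 in WT and 4.89 and 2.78 in C/EBPβ enh-/- cells (difference −0.98).

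**Figure D3:**
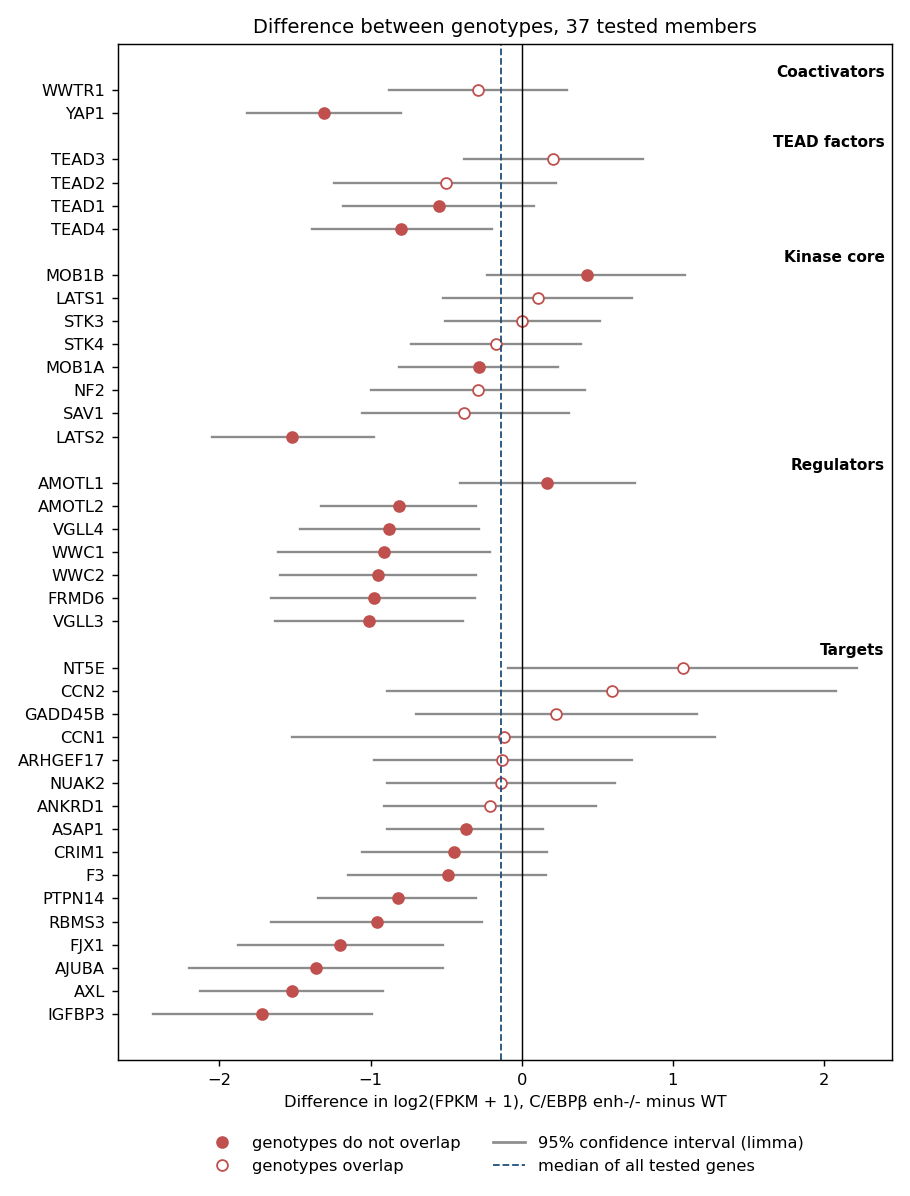
Difference in log2(FPKM + 1), C/EBPβ enh-/- minus WT, for the 37 tested genes with 95% confidence intervals from limma, filled where the genotypes did not overlap, with a dashed line at the median of all tested genes (−0.14). Of the 7 regulators 6 lie between −1.01 and −0.81, while the targets run from −1.72 for IGFBP3 to 1.07 for NT5E, with intervals that are widest for CCN1 and CCN2.

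The question behind the list was whether target genes went down with YAP1. Their values ran from lower without overlap to overlapping. Of 16 tested targets, 9 had both C/EBPβ enh-/- values below both WT values, against 37.5% of all tested genes, 0 had both above, against 15.1%, and 7 overlapped. AXL, 1 of the 16, passed the test, while 1.21% of all genes were called lower. The median difference was −0.41, against −0.14 over all tested genes, and the single values ran from −1.72 to 1.07. DLC1 was not tested because its mean FPKM was 0.618. Its values were 1.35 and 0.539 in WT and 0.284 and 0.295 in C/EBPβ enh-/- cells.

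AXL (ENSG00000167601.7, chromosome 19 of GRCh37 from 41725128 to 41767671, plus strand) encodes a receptor tyrosine kinase. Its FPKM was 38 and 37.0 in WT and 10.1 and 15.2 in C/EBPβ enh-/- cells. The mean fell from 37.5 ± 0.685 (SD, n = 2) to 12.7 ± 3.64 (SD, n = 2), a ratio of 0.337, with WT libraries that were nearly equal. The difference was −1.52 (standard error 0.25, limma adjusted p = 0.0442). The adjusted p was 0.315 and 0.26 without WT library 1 or 2, 0.195 and 0.0892 without C/EBPβ enh-/- library 1 or 2, and 0.065 with the replicate number as a block. It was also 0.0536 without the mean-variance trend, 0.104 with rescaled libraries, 0.0933 with centred libraries and 0.514 with no filter on low values.

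Another 5 targets had differences of −0.82 or below and did not pass the test. IGFBP3, a secreted binding protein of insulin-like growth factors, had an FPKM of 44.2 and 50.3 in WT and 18.5 and 10.0 in C/EBPβ enh-/- cells. Its difference of −1.72 (standard error 0.31) was the lowest among the listed genes but missed the threshold (limma adjusted p = 0.0547), and it passed with the filter raised to a mean FPKM of 5 (adjusted p = 0.0473). AJUBA encodes a LIM protein that binds LATS kinases. It had 70.0 and 40.3 in WT and 15.5 and 26.1 in C/EBPβ enh-/- cells, with wider gaps within each genotype than between the nearest libraries of the 2 genotypes on the log2 scale (difference −1.36, limma adjusted p = 0.106). FJX1, a secreted protein related to fly four-jointed, had 5.48 and 5.61 in WT and 1.29 and 2.56 in C/EBPβ enh-/- cells (difference −1.20, limma adjusted p = 0.0903). PTPN14, a phosphatase that binds YAP, had 13.1 and 10.7 in WT and 6.23 and 6.27 in C/EBPβ enh-/- cells (difference −0.82). RBMS3, an RNA-binding protein, had 13.3 and 12.2 in WT and 4.42 and 8.21 in C/EBPβ enh-/- cells, and its difference of −0.96 was −0.58 without C/EBPβ enh-/- library 1. In all of these genes every C/EBPβ enh-/- library was below every WT library.

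Smaller differences with no overlap were found in 3 more targets. CRIM1, a transmembrane protein that binds growth factors, had 60.7 and 92.4 in WT and 54.9 and 54.5 in C/EBPβ enh-/- cells, and its difference of −0.45 was −0.75 without WT library 1 and −0.15 without WT library 2. ASAP1, which regulates ARF GTPases, had 13.6 and 13 in WT and 11.0 and 9.16 in C/EBPβ enh-/- cells (difference −0.37). F3, which encodes tissue factor, was near the detection filter, with 1.4 and 1.92 in WT and 0.927 and 0.831 in C/EBPβ enh-/- cells (difference −0.49). Limma adjusted p-values for these 3 genes were 0.355 to 0.372.

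CCN1, CCN2 and ANKRD1, the genes most often used as a readout of YAP and TEAD activity, did not separate by genotype. CCN2 encodes a matrix-associated growth regulator, and its promoter holds the 3 TEAD motifs shown above. Its FPKM was 6.58 and 14.1 in WT and 30.7 and 7.25 in C/EBPβ enh-/- cells, so the highest value of all came from C/EBPβ enh-/- library 1. The difference was 0.60 (95% confidence interval −0.89 to 2.08), and it was −0.37 without that library. CCN1, a close relative, had 9.63 and 18.3 in WT and 24.0 and 5.94 in C/EBPβ enh-/- cells, with the highest and the lowest value both in C/EBPβ enh-/- libraries. Its difference of −0.12 (95% confidence interval −1.52 to 1.28) turned to 0.81 without C/EBPβ enh-/- library 2, to 0.31 without WT library 2 and to 0.055 with centred libraries. ANKRD1, a nuclear ankyrin protein, was low throughout, with 1.33 and 1.16 in WT and 1.26 and 0.68 in C/EBPβ enh-/- cells (difference −0.21, 95% confidence interval −0.91 to 0.49, and 0.0067 without C/EBPβ enh-/- library 2). The intervals of all 3 genes include 0, and at the level of ANKRD1 the added 1 understates a change.

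The remaining 4 targets also overlapped between genotypes. NT5E, the ecto-nucleotidase CD73, had 3.93 and 8.33 in WT and 21.6 and 7.95 in C/EBPβ enh-/- cells. Its difference of 1.07 was the highest among the listed genes and rested on library 1 (95% confidence interval −0.09 to 2.22, limma adjusted p = 0.268). GADD45B, a stress response gene, had 11.9 and 8.34 in WT and 18.0 and 7.67 in C/EBPβ enh-/- cells, and its difference of 0.23 turned to −0.34 without C/EBPβ enh-/- library 1. ARHGEF17 had 2.8 and 4.26 in WT and 1.99 and 4.63 in C/EBPβ enh-/- cells, with a difference of −0.13 that turned to 0.0481 in centred libraries, to 0.11 without WT library 2 and to 0.33 without C/EBPβ enh-/- library 1. NUAK2, a kinase of the AMPK family, had 2.02 and 4.05 in WT and 2.22 and 2.91 in C/EBPβ enh-/- cells, with a difference of −0.14 that turned to 0.036 in centred libraries and to 0.23 without WT library 2.

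The spread between libraries of 1 genotype was not used to choose the genes, and it varied widely among the targets. Over all tested genes the median absolute difference between libraries was 0.23 on the log2 scale in WT and 0.29 in C/EBPβ enh-/- cells. Of the 16 tested targets, 6 exceeded the 90th percentile of all genes in C/EBPβ enh-/- cells and 5 did so in WT cells, while of the 8 core genes 0 did in C/EBPβ enh-/- cells and 1, NF2 at percentile 93.1, did in WT cells. CCN2 differed 4.23-fold between the C/EBPβ enh-/- libraries, at percentile 99.3 of all tested genes, and 2.13-fold between the WT libraries, at percentile 96.6. CCN1 differed 4.04-fold and 1.9-fold, at percentiles 99.2 and 94.9. NT5E differed 2.71-fold and 2.12-fold, at percentiles 98.0 and 95.8. These 3 genes shared a pattern, with values in library 2 higher than in library 1 of WT cells and lower in C/EBPβ enh-/- cells. GADD45B differed 2.35-fold between the C/EBPβ enh-/- libraries, again with library 1 the higher, and its relative GADD45A, from a longer list of targets, had 22.7 and 7.98 there. IGFBP3 was also higher in library 1, whereas ARHGEF17 was lower there.

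**Figure D4:**
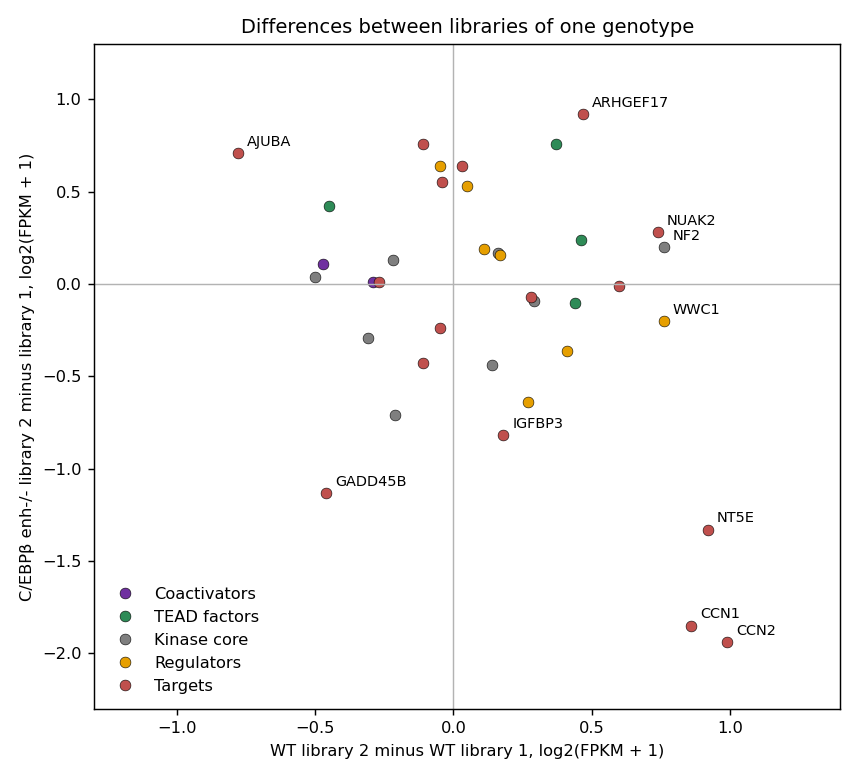
Difference between library 2 and library 1 on the log2(FPKM + 1) scale, in WT cells (horizontal) and C/EBPβ enh-/- cells (vertical), 1 point per gene coloured by role. NT5E, CCN1 and CCN2 stand alone at the lower right, with 0.86 to 0.99 in WT and −1.94 to −1.33 in C/EBPβ enh-/- cells.

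The ratio of CCN1 to CCN2, in which a change shared by both cancels, was 1.46 and 1.3 in WT and 0.783 and 0.82 in C/EBPβ enh-/- cells. CCN1 was thus the higher of the pair in both WT libraries and the lower in both C/EBPβ enh-/- libraries, although neither gene alone separated the genotypes. C/EBPβ enh-/- library 1, where CCN1, CCN2, NT5E and GADD45B were highest, was also the library with the lowest depth (about 22000000 fragments) and the largest share of FPKM in its 5 highest genes (35.1%), and the part of these in the values was not tested.

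Other genes of the pathway were read from longer lists. Of 27 further upstream genes, such as the TAO and MAP4K kinases, FAT cadherins and the striatin complex, 21 were tested, 1 was called lower and 0 higher, against 1.21% and 0.248% of all genes. Both C/EBPβ enh-/- values were below both WT values in 10 of the 21, against 37.5% of all genes, and above both in 3, against 15.1%. The median difference was −0.20, against −0.14 over all genes, and was −0.096 without WT library 2, −0.11 without C/EBPβ enh-/- library 1 and −0.021 with centred libraries. TAOK3, a kinase that can activate MST kinases, was the called gene. Its FPKM was 7.02 and 6.63 in WT and 1.57 and 1.87 in C/EBPβ enh-/- cells, with a difference of −1.53 (standard error 0.23, limma adjusted p = 0.0334). The adjusted p was 0.29 and 0.247 without WT library 1 or 2, 0.184 and 0.0978 without C/EBPβ enh-/- library 1 or 2, and 0.0565 with the replicate number as a block. It was also 0.062 with rescaled libraries, 0.0656 with centred libraries and 0.216 with no filter on low values. At a mean FPKM of 5 or more, the largest absolute differences included those of MAP4K5 (−0.86) and MAP4K2 (−0.70). MAP4K5, a kinase that acts on LATS in parallel to MST, had 25.5 and 24.0 in WT and 12.6 and 13.8 in C/EBPβ enh-/- cells (limma adjusted p = 0.0941).

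Of 17 further YAP/TEAD targets, 16 were matched by symbol and 15 tested, with 1 called lower and 0 higher, against 1.21% and 0.248% of all genes. Both C/EBPβ enh-/- values were below both WT values in 6 of the 15 (40.0%), against 37.5% of all genes, and above both in 2, against 15.1%, with a median difference of −0.47. This median was −0.27 without WT library 2, −0.32 without C/EBPβ enh-/- library 1, −0.29 with centred libraries and −0.20 with the filter raised to a mean FPKM of 5. The called gene was MYOF, a membrane repair protein, at 21.2 and 20.2 in WT and 5.22 and 6.56 in C/EBPβ enh-/- cells. Its difference was −1.66 (standard error 0.22, limma adjusted p = 0.0249). The adjusted p was 0.254 and 0.22 without WT library 1 or 2, 0.173 and 0.0892 without C/EBPβ enh-/- library 1 or 2, and 0.0429 with the replicate number as a block. It was also 0.0585 with rescaled libraries and 0.317 with no filter on low values. EDN1, which encodes endothelin 1, had 8.08 and 20.2 in WT and 3.04 and 3.26 in C/EBPβ enh-/- cells (difference −1.74, limma adjusted p = 0.0833). The higher WT value came from library 2, and the difference was −1.13 without it and −2.36 without WT library 1. THBS1, a matrix glycoprotein, had 36.3 and 60.9 in WT and 15.8 and 22.1 in C/EBPβ enh-/- cells (difference −1.28, limma adjusted p = 0.0913).

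Position on the chromosome was set beside the values, since the median difference varied between chromosomes. LATS2 lies on chromosome 13, where the 212 tested genes had a median of −0.50 and 67.5% had both C/EBPβ enh-/- values below both WT values. Within 500 kb of LATS2, 9 other tested genes had a median of −0.58 and a range from −0.83 to −0.07, and 7 of them were lower without overlap, so LATS2 at −1.52 was below all of its neighbours. YAP1 lies on chromosome 11, where the median of 680 tested genes was −0.02. Its 4 tested neighbours had a median of −0.46 and included BIRC3, a gene of the inhibitor of apoptosis family, with 5.88 and 15.2 in WT and 2.39 and 1.09 in C/EBPβ enh-/- cells (difference −1.99, limma adjusted p = 0.0816). BIRC2, next to BIRC3, had a difference of 0.21. AXL lies on chromosome 19, where the median of 811 tested genes was 0.02, and its 13 tested neighbours had a median of −0.16, with 4 lower and 1 higher without overlap. None of the neighbours of LATS2, YAP1 or AXL was called. AJUBA, SAV1 and FRMD6 lie on chromosome 14, where the median was −0.39 and 59.7% of tested genes were lower without overlap. CRIM1 and MOB1A lie on chromosome 2, where the median was −0.44 and 60.6% were lower without overlap. CRIM1, with a difference of −0.45, was therefore at the median of its chromosome. Chromosomes 6 and 8, which hold other listed genes, had medians of 0.11 and 0.21, with 17.0% and 14.5% lower without overlap. Whether shifts of whole chromosomes have a part in the values of single genes was not tested.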

How the data were processed

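Expression was compared between 2 WT and 2 C/EBPβ enh-/- libraries, with genotype and library number read from the titles and genotype labels. The authors deposited 1 FPKM value for each of 57815 gene entries of a library. Leaving out pseudoautosomal Y copies gave 57768 genes, 55535 of them with a symbol. The submitters' processing notes name hg19, TopHat2 2.0.13, Cufflinks and edgeR without their roles, and whether libraries were scaled to each other is not given in the sources used here. FPKM is relative to the library total, so a few abundant genes lower all other values of their library. The extract protocol in the labels describes chromatin, while the library is described as RNA-seq.

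Depth was estimated from the step between low values (FPKM below 0.3) of genes with 1 transcript of at least 1000 nt. Between 36.6% and 42.1% of these values fell within 0.1 of whole fragments, against 20% if evenly spread, so the depths are rough and reads were not recovered from them.

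Genes whose FPKM averaged 1 or more across all 4 libraries were compared as log2(FPKM + 1) with limma 3.58.1 in R 4.3.3 (lmFit, then eBayes with trend). Tests were two-sided, p-values were adjusted by Benjamini-Hochberg over all 12491 tested genes, and the threshold was 0.05. The fit was tested on simulated data. An exact permutation test of 2 against 2 libraries cannot give a p below 0.333 and was not used. All listed genes were named by role, and from the longer lists the called genes and the 3 largest absolute differences at a mean FPKM of 5 or more. A gene that this rule names is not reported here. The listed genes, the longer lists and the tests were chosen with earlier results of these data known. The alternatives were fits without trend, with a pseudocount of 0.1, unfiltered, filtered at a mean FPKM of 5, with rescaled totals, with centred medians, with a replicate block, without each library and, chosen after seeing the data, with protein-coding genes alone. Positions on GRCh37 came from GENCODE, and promoters from RefSeq on GRCh38.p14. Figures were drawn with matplotlib 3.10.9 in Python 3.11.15.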

Additional observations from a re-analysis of the deposited data

How the results depend on the processing

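Counted with YAP1, whose fall chose the list and whose call is therefore no test, 3 of the 37 genes were called lower with all libraries. The number was 1 without the mean-variance trend, 3 with a pseudocount of 0.1, 3 at a mean FPKM of 5 or more (IGFBP3 in place of LATS2), and 0 with no filter, with rescaled libraries, with centred libraries or with the replicate block, and 0 when any 1 library was left out (range 0 to 0). It was 5 among protein-coding genes alone, with FJX1 and IGFBP3 added, a setting chosen after seeing the data. Over all tested genes the calls were 151 lower and 31 higher, 93 and 31 with the block, 61 and 23 with rescaled, 68 and 31 with centred libraries, 0 and 0 with no filter, and 457 and 60 among protein-coding genes. The deviations of same-numbered libraries had a correlation of 0.00945 across genes, so the libraries share a number and no more is known of a pairing. The block gave an adjusted p of 0.0506 for LATS2 and 0.065 for AXL.

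Centring moved the median difference of all tested genes from −0.14 to 0.0345, of the 37 genes from −0.446 to −0.272, of the kinase core to −0.0522 and of the targets to −0.236. At a mean FPKM of 5 or more the median of the listed genes was −0.674. Without 1 library at a time the medians ran from −0.636 to −0.402 for the listed genes, from −0.251 to −0.0438 for the kinase core and from −0.592 to −0.306 for the targets. Targets with both C/EBPβ enh-/- values above both WT values numbered 1 with rescaled or centred libraries, against 0 in the unaltered values. Those with both below numbered 9 with rescaled libraries, 8 with centred libraries, 10 with no filter, 10 to 12 without 1 library and 7 at a mean FPKM of 5 or more, against 9 with all 4.

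The alternatives other than leaving out a library gave 287 values of the 37 genes. Of these, 264 kept their direction and their side of the threshold, 15 lost the call, 3 gained it and 5, in 5 genes, changed sign. All 15 losses were in YAP1, LATS2 and AXL, the only genes called with all 4 libraries. The other genes had no call to lose, so the 264 do not show that the calls were stable. YAP1, whose fall chose the list, is counted here as a description. Of 148 values with 1 library left out, 15, in 10 genes, changed sign. Leaving out 1 library moved the difference of 23 of the 37 genes by over 1.5 times, those other than YAP1, TEAD4, LATS2, AMOTL2, VGLL3, VGLL4, FRMD6, AJUBA, AXL, F3, FJX1, PTPN14, ASAP1 and IGFBP3. STK3 was −0.00468 with rescaled libraries. With centred libraries STK4 was 0.00437, CCN1 0.055, NUAK2 0.036 and ARHGEF17 0.0481. Without 1 library at a time the range was −0.0108 to 0.43 for TEAD3, −0.105 to 0.112 for STK3, −0.141 to 0.356 for LATS1, −0.672 to 0.0927 for NF2, −1.04 to 0.805 for CCN1, −0.373 to 1.57 for CCN2, −0.419 to 0.0067 for ANKRD1, −0.509 to 0.232 for NUAK2, −0.339 to 0.794 for GADD45B and −0.584 to 0.331 for ARHGEF17. Where 1 library was left out, the lone library of its genotype was assumed to vary like the others. The causes of these changes were not tested. With 2 libraries per genotype, the number of libraries limits the precision.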
